A study of Mus musculus with 2 samples.

Results

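The RNAs described here encode the proteins that carry iron in plasma, take it into liver cells, store it, release it and set the amount of hepcidin. They are 10 genes chosen by symbol: Trf, Tfrc, Tfr2, Hfe, Fth1, Ftl1, Slc40a1, Hamp, Hamp2 and Bmp6. All 10 were found by gene identifier among the 43346 mouse genes of the files, of which 21474 are protein-coding. The samples are 2 libraries of RNA longer than 200 nucleotides, made from liver tissue of adult C57BL/6J mice aged 8 weeks, with no treatment or genotype named. They form 1 group and are called replicate 1 and replicate 2. Each has its own biosample, but both carry the same donor identifier, the sex was not collected and the health state is given as unknown. The spread between the libraries may therefore be partly technical and is not known to be a spread between animals. As each side of the ratio is a single library, no p-value is given.

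Iron circulates bound to transferrin, which the liver secretes, and enters cells when loaded transferrin binds transferrin receptor. Inside the cell iron is stored in ferritin, a shell of heavy and light chains, and it leaves through the only known iron exporter, ferroportin. Hepcidin, a small peptide hormone of hepatocytes, binds ferroportin and has it degraded; its transcription is driven by BMP6 from endothelial cells, by the sensors HFE and TFR2, and by interleukin-6 in inflammation. Ferritin, ferroportin and transferrin receptor messages also carry iron-responsive elements, hairpins bound by the iron regulatory proteins when iron is scarce, which block translation from the 5′ end and stabilise the message from the 3′ end.

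The hairpins are shown so that the transcripts of these genes that hold the letters of the element can be told from those that do not. A search of GENCODE M21 transcripts for the loop CAGTGN after a bulged C, with 5 paired bases on either side of the loop, found 1 site in Fth1, 1 in Ftl1, 1 in Slc40a1 and 4 in Tfrc. Each is printed as 28 bases of DNA, 5′ to 3′ on the strand of the gene, with the loop in capitals. Coordinates are mm10, with Ftl1 and Slc40a1 on the minus strand.
Fth1 5′ UTR, chr19:9982732-9982759: ttcctgcttcaaCAGTGCttgaacggaa
Ftl1 5′ UTR, chr7:45459780-45459807: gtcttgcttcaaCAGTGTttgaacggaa
Slc40a1 5′ UTR, chr1:45925466-45925493: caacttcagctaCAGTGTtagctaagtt
Tfrc 3′ UTR, chr16:32631219-32631246: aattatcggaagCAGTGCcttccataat
Tfrc 3′ UTR, chr16:32631598-32631625: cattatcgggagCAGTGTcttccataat
Tfrc 3′ UTR, chr16:32631663-32631690: ctatatcggagaCAGTGAtctccatatg
Tfrc 3′ UTR, chr16:32631710-32631737: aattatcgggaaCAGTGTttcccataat
The same search matched 562 of 58797 protein-coding transcripts (0.956%) and 294 of 21877 genes (1.34%), so a match is a description of the letters and not proof of a working element.

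The hepcidin genes Hamp and Hamp2 lie beside each other on chromosome 7, and their upstream sequences are shown because the pair differed in how far apart the libraries stood. The windows run from 250 bases before to 50 bases after the start in RefSeq on GRCm38.p6, minus strand. Capitals mark the BMP response element core GGCGCC and the STAT site TTCTTGGAA in Hamp, and the bases aligned with them in Hamp2.
Hamp, chr7:30943980-30944279: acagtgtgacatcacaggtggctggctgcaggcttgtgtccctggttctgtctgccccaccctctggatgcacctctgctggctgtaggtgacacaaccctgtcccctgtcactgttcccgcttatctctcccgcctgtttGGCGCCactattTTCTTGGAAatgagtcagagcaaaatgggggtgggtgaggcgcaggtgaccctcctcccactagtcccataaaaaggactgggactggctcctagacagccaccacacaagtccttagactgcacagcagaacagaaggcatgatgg
Hamp2, chr7:30924132-30924431: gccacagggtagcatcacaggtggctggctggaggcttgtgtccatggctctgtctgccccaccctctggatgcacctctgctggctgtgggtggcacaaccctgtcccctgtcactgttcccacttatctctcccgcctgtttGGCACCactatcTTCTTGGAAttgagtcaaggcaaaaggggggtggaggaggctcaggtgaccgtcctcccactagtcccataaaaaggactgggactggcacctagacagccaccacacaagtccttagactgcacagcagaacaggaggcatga
Of 297 aligned bases 276 were identical (92.9%). The GGCGCC core stands at bases 142 to 147 of the Hamp window, 109 bases before the start, and the aligned Hamp2 bases carry the substitution G145A, counted from 1 at the 5′ end of the Hamp window. The letters TTCTTGGAA are in both windows, 97 bases before the start of Hamp and 94 before that of Hamp2. Searched on both strands, GGCGCC occurs in 3898 of 32851 windows of this length (11.9%) and TTCTTGGAA in 137 (0.417%). Among the 12 windows of the iron genes in that set, GGCGCC was also in 1 window of Tfrc. No window was available for Trf or Slc40a1, so these genes were not searched.

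The ends of the coding regions are shown because most of the coding differences between the hepcidin messages lie there. The last 78 bases hold 25 codons, which in Hamp encode the mature hormone, and the stop. Capitals mark the bases that differ.
Hamp, chr7:30942477-30942554: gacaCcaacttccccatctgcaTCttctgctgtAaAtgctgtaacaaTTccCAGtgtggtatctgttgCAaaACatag
Hamp2, chr7:30922508-30922585: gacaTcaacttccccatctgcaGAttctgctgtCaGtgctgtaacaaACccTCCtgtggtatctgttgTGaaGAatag
The coding regions are 252 bases each and differ at 16 bases (93.7% identical). Of these differences 14 fall in the printed end, which is 82.1% identical, and 2 in the 174 bases before it, which are 98.9% identical. The authors' quantification gave both genes whole counts with a posterior SD of 0.

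The expected counts, which are estimated fragments per gene, summed to 83816487 over mouse genes in replicate 1 and to 71068191 in replicate 2. Levels are TPM, an abundance per length, rescaled without the spike-in RNAs. Protein-coding genes held 12.2% of TPM in replicate 1 and 16.4% in replicate 2, so TPM of most messages is lower in replicate 1; ratios between the libraries are therefore the log2 of TMM-scaled CPM plus 0.5, replicate 1 over replicate 2, and a negative ratio means higher in replicate 2. All 7 hepatocyte markers listed, such as Alb, were above 1 TPM in both libraries. Markers of other organs differed between the libraries: 7 pancreatic acinar genes summed to 118 TPM in replicate 1 and 39.8 in replicate 2, 7 adrenal cortex genes to 0.181 TPM in replicate 1 and 13.96 in replicate 2, and 7 skeletal muscle genes to 5.37 TPM in replicate 1 and 0.241 in replicate 2. Their part in the results below was not tested.

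Together the 10 genes held 0.267% of endogenous TPM in replicate 1 and 0.483% in replicate 2, a mean of 0.375% ± 0.153 (SD, n = 2). Of protein-coding TPM alone they held 2.19% in replicate 1 and 2.95% in replicate 2. Trf alone, over all its transcript models, made up 75.9% of their summed TPM in replicate 1 and 73.2% in replicate 2. The ferritin chains added 17.6% in replicate 1 and 19.4% in replicate 2, and the hepcidin genes 4.87% in replicate 1 and 5.81% in replicate 2. The transferrin receptors added 0.845% in replicate 1 and 0.859% in replicate 2. The division among carrier, storage, hepcidin and receptor genes differed less between the libraries than the summed level did.

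By mean TPM the order was Trf, Ftl1, Fth1, Hamp, Hamp2, Tfr2, Slc40a1, Hfe, Tfrc and Bmp6. The plot of levels by library shows it. The libraries' ranges overlapped between neighbours for Fth1 and Hamp and for Tfr2 and Slc40a1, and for no other pair of neighbours. Fth1 stood above Hamp in replicate 1 (1.69 times its TPM) and below it in replicate 2 (0.864 times). Tfr2 stood above Slc40a1 in both, at 1.55 times its TPM in replicate 1 and 1.45 times in replicate 2. By expected count, with no division by length, 6 of the 10 genes kept their position, and Tfr2 and Slc40a1 stood above Hamp and Hamp2.

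**Figure D1:**
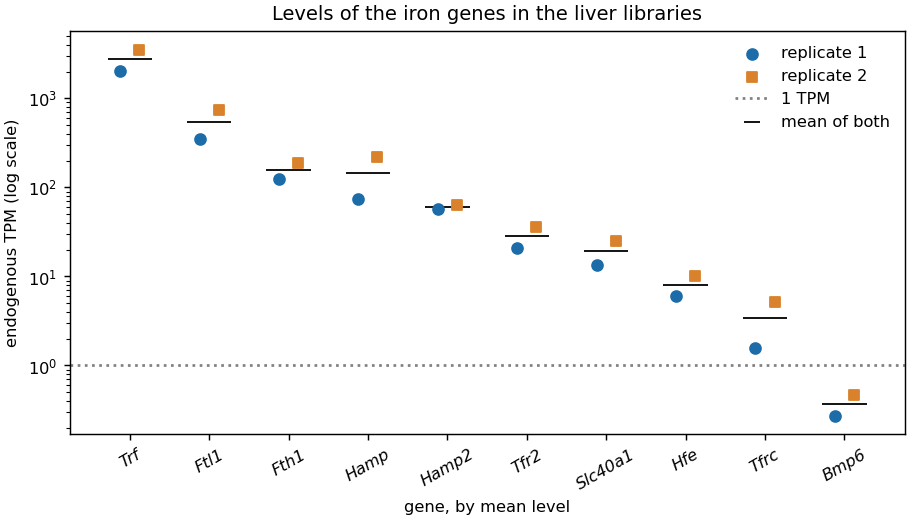
Endogenous TPM on a log axis for each of the 10 iron genes, ordered by mean, with a circle for replicate 1, a square for replicate 2 and a bar at their mean. Every gene is higher in replicate 2 on this scale, 9 genes lie above 1 TPM in both libraries, and Bmp6 lies below it in both.

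Of the 10 genes, 9 reached 1 TPM in both libraries, and the same 9 passed the filter for ratios, a mean of 1 TPM and 10 counts. Of these, 2 were over 2-fold apart, Hamp and Tfrc, both higher in replicate 2. Among all 7702 genes that passed the filter 2.36% were over 2-fold apart in either direction, and 0.792% were over 2-fold higher in replicate 2. The ratio was negative for 8 of the 9 and positive for Hamp2, whose ratio was -0.15 by deposited TPM, with a median of -0.29, beside a median of 0.04 over all 7702 genes, of which 3430 were negative. The plot of ratio by level places each gene among all genes tested.

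**Figure D2:**
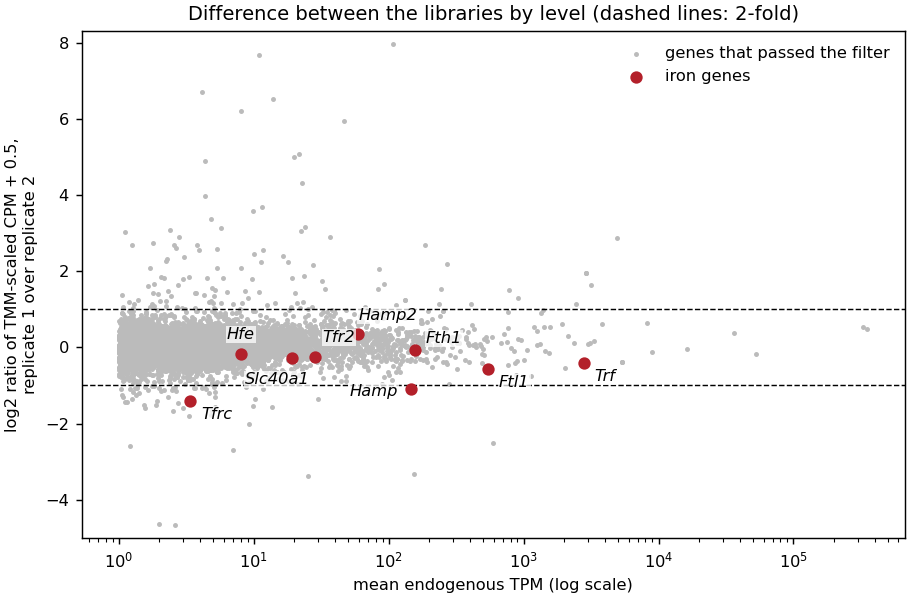
Log2 ratio of TMM-scaled CPM plus 0.5, replicate 1 over replicate 2, against mean endogenous TPM on a log axis; grey points are the 7702 genes that passed the filter, red points the 9 iron genes that did, dashed lines 2-fold. Hamp at -1.08 and Tfrc at -1.39 lie below the lower line, and the other 7 lie between the lines.

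Trf encodes transferrin, the plasma carrier of iron (ENSMUSG00000032554.11, chromosome 9 from 103204001 to 103230444, minus strand). It had 851893 counts in replicate 1 and 1062596 in replicate 2, and a level of 2025 TPM in replicate 1 and 3536 TPM in replicate 2. It ranked 6 among the 21474 protein-coding genes by mean TPM and took 1.02% of all endogenous counts in replicate 1 and 1.495% in replicate 2. The log2 ratio was -0.41, and 19.5% of the genes tested were at least as far from 0. Exons of the annotated gene Gm20425 overlap Trf by 2108 bases on the same strand, and that gene was given 384 counts in replicate 1 and 381 in replicate 2.

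Trf was the gene with the most transcript models, 9, all with counts. The coding model Trf-203 (2339 nucleotides) held 45.2% of the TPM of Trf in replicate 1 and 51.8% in replicate 2. Next came Trf-209, a retained-intron model of 433 nucleotides, with 39.2% in replicate 1 and 30.9% in replicate 2. That share belongs to a short model: by counts Trf-209 held 6.52% of Trf in replicate 1 and 4.80% in replicate 2. The level, rank and share given above for Trf include this model. Coding models alone had 1210 of 2017 deposited TPM in replicate 1 and 2302 of 3520 in replicate 2. Trf-203 held 72.0% of counts in replicate 1 and 74.1% in replicate 2. The longer coding model Trf-201 (2571 nucleotides) came next by counts, with 19.5% in replicate 1 and 19.4% in replicate 2. Trf-205, annotated as a target of nonsense-mediated decay, had 1961 counts in replicate 1 and 11005 in replicate 2. The short coding model Trf-208 was the higher in replicate 1, with 13491 counts in replicate 1 and 5274 in replicate 2.

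Tfrc encodes transferrin receptor, which brings loaded transferrin into cells (ENSMUSG00000022797.11, chromosome 16 from 32608920 to 32632794, plus strand). It had 1578 counts in replicate 1 and 3963 in replicate 2, or 1.59 TPM in replicate 1 and 5.18 TPM in replicate 2. It was the lowest of the 9 genes that passed the filter and the one with the libraries furthest apart, ranking 5276 among protein-coding genes in replicate 1 and 2954 in replicate 2. The log2 ratio was -1.39, or 2.63-fold higher in replicate 2. Its 95% interval from counting error, taken here and below on the counts without the added 0.5, was -1.502 to -1.33. Of the 7702 genes 101 (1.31%) were at least as far from 0.

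The Tfrc transcripts with the 3′ hairpins printed above were Tfrc-201, the coding message, and Tfrc-204, a retained-intron model, with 69.3% of Tfrc TPM in replicate 1 and 84.2% in replicate 2. Tfrc-201 alone held 47.1% in replicate 1 and 63.7% in replicate 2, and its counts were 1097 in replicate 1 and 3114 in replicate 2. Retained-intron models together held 46.7% in replicate 1 and 32.2% in replicate 2. Part of this rests on how low values were estimated: the 166-nucleotide model Tfrc-203 had 0 counts in both libraries, yet the authors' posterior mean gave it 54.9% of the gene in replicate 1 and 28.4% in replicate 2. With that estimate the level of Tfrc was 3.55 TPM in replicate 1 and 7.23 in replicate 2.

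Tfr2 encodes transferrin receptor 2, a hepatocyte sensor of loaded transferrin that acts on hepcidin (ENSMUSG00000029716.9, chromosome 5 from 137569840 to 137587481, plus strand). It had 17912 counts in replicate 1 and 19898 in replicate 2, or 20.9 TPM in replicate 1 and 36.3 TPM in replicate 2, all in 1 transcript model. The log2 ratio was -0.24, and 42.4% of the genes tested were at least as far from 0. In both libraries Tfr2 was the more abundant receptor message, at 13.2 times the TPM of Tfrc in replicate 1 and 7.004 times in replicate 2. By the posterior mean TPM, which raises Tfrc, it was 5.86 times in replicate 1 and 4.98 times in replicate 2. Hfe, the membrane protein that is mutated in human hereditary hemochromatosis and binds transferrin receptor, had 3084 counts in replicate 1 and 3261 in replicate 2 (ENSMUSG00000006611.10, chromosome 13 from 23702034 to 23710854, minus strand). That is 6.07 TPM in replicate 1 and 10.04 in replicate 2, with a log2 ratio of -0.17, and Hfe-202 held 89.5% of its TPM in replicate 1 and 86.8% in replicate 2. Tfr2 stood at 3.45 times the TPM of Hfe in replicate 1 and 3.61 times in replicate 2.

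The ferritin chains were the main storage messages. Ftl1 encodes the light chain, which aids mineral formation inside the shell (ENSMUSG00000050708.10, chromosome 7 from 45457944 to 45459884, minus strand). It had 81288 counts in replicate 1 and 113967 in replicate 2, or 346 TPM in replicate 1 and 747 TPM in replicate 2, and ranked 29 among protein-coding genes. Its log2 ratio was -0.58, and 675 of the genes tested (8.76%) were at least as far from 0. Fth1 encodes the heavy chain, which oxidises iron for storage (ENSMUSG00000024661.6, chromosome 19 from 9980598 to 9985098, plus strand). It had 25500 counts in replicate 1 and 25194 in replicate 2, or 124 TPM in replicate 1 and 188 TPM in replicate 2, with a log2 ratio of -0.07, the closest to 0 of the 9 genes.

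The chains therefore stood in a different ratio in each library: Ftl1 had 2.80 times the TPM of Fth1 in replicate 1 and 3.96 times in replicate 2. By counts the ratio was 3.19 in replicate 1, with a counting interval of 3.14 to 3.23, and 4.52 in replicate 2, with an interval of 4.46 to 4.59. This comparison within a library does not depend on how the libraries are scaled. Annotated relatives of the ferritin genes were counted as well, since near-identical copies can draw reads. The 3 light-chain copies, namely Ftl1-ps1, which is annotated as protein-coding, and the processed pseudogenes Ftl2-ps and Ftl1-ps2, held counts equal to 2.38% of those of Ftl1 in replicate 1 and 2.03% in replicate 2. On the heavy-chain side the processed pseudogene Fth-ps2 had 5 counts in replicate 1 and 2 in replicate 2, and the 9 genes and unprocessed pseudogenes of the Fthl17 family on chromosome X had 0. Other processed copies of Fth1 were not looked for. Adding its copies left the ratio of Ftl1 at -0.57.

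The hairpin of Ftl1 is in its main coding transcript of 968 nucleotides, which held 67.2% of Ftl1 TPM in replicate 1 and 74.3% in replicate 2. The other 4 models of Ftl1 in the files had no match in GENCODE M21, so their sequence was not searched. Of these, the model of 943 nucleotides held 31.1% in replicate 1 and 24.6% in replicate 2. GENCODE M21 has a Ftl1 transcript of the same length under another identifier that does hold the hairpin, so the share of Ftl1 with the hairpin may be higher than that of the main transcript; whether these models are the same was not tested. Fth1 had 1 model in the files, of 866 nucleotides. Its hairpin was found in the GENCODE M21 version of that transcript, which is 929 nucleotides long. The shorter version was not searched itself.

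Slc40a1 encodes ferroportin, the target of hepcidin (ENSMUSG00000025993.6, chromosome 1 from 45908068 to 45926523, minus strand). It had 12905 counts in replicate 1 and 14816 in replicate 2, or 13.5 TPM in replicate 1 and 24.96 TPM in replicate 2. The log2 ratio was -0.29, equal to the median of the 9 genes, and 34.6% of the genes tested were at least as far from 0. Its main coding transcript, of 3370 nucleotides, held 84.1% of its TPM in replicate 1 and 83.6% in replicate 2, the steadiest main transcript of the 5 genes with several. The 3 models that hold the letters of the hairpin summed to 95.01% in replicate 1 and 92.3% in replicate 2. Of these, only the main coding transcript has it in an annotated 5′ UTR. The others are retained-intron models with no annotated coding region, with 10.95% in replicate 1 and 8.68% in replicate 2. The plot of transcript classes sets these shares beside those of Trf, Ftl1, Tfrc and Hfe.

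**Figure D3:**
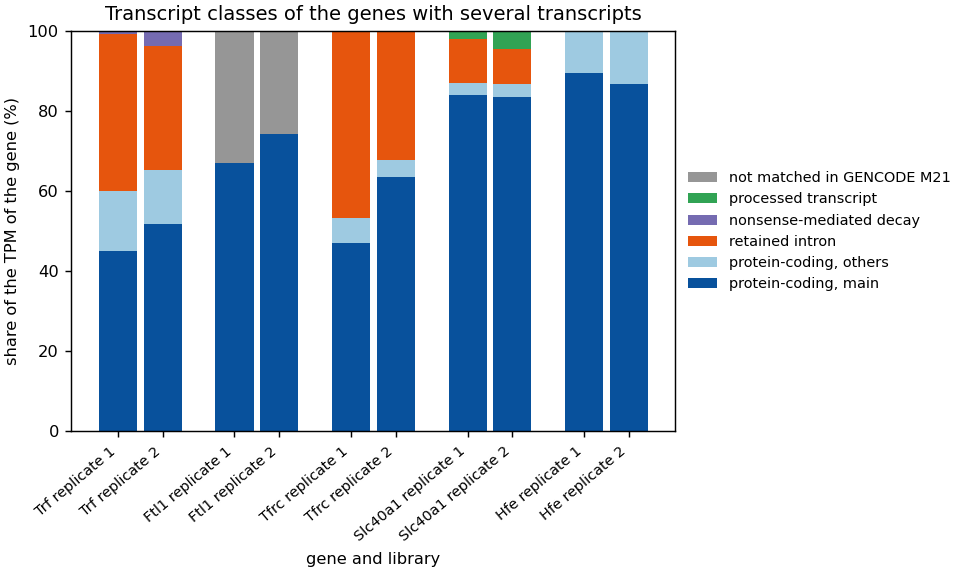
Share of the TPM of each gene, in percent, by annotated transcript class, for the 5 iron genes with several transcript models, with replicate 1 left of replicate 2; the darkest segment is the main coding transcript. The main transcript is the same in both libraries for every gene. Retained-intron models take 39.3% of Trf and 46.7% of Tfrc in replicate 1, against 31.1% of Trf and 32.2% of Tfrc in replicate 2. By counts, not drawn, they held 6.56% of Trf and 27.2% of Tfrc in replicate 1. In replicate 2 they held 4.86% of Trf and 19.6% of Tfrc by counts.

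Hamp encodes hepcidin, the hormone that lowers plasma iron (ENSMUSG00000050440.7, chromosome 7 from 30942368 to 30944032, minus strand). It had 4183 counts in replicate 1 and 8378 in replicate 2, or 73.3 TPM in replicate 1 and 218 TPM in replicate 2. Replicate 2 was the higher library by 2.12-fold after scaling, a log2 ratio of -1.08 with a counting interval of -1.14 to -1.04. Of the 7702 genes 152 (1.97%) were at least as far from 0. Hamp ranked 233 among protein-coding genes in replicate 1 and 89 in replicate 2.

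Hamp2 encodes a second hepcidin found in mice (ENSMUSG00000056978.6, chromosome 7 from 30922372 to 30924681, minus strand). It had 4027 counts in replicate 1 and 2975 in replicate 2, or 56.5 TPM in replicate 1 and 62.7 TPM in replicate 2. Its log2 ratio was 0.34 by TMM-scaled CPM, with a counting interval of 0.28 to 0.42, but -0.15 by deposited TPM, so which library was higher depends on the scaling. Against the median of all genes, which each scaling moves, Hamp2 stood at 0.31 by TMM and 0.36 by deposited TPM, and Hamp at -1.12 and -1.06.

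The hepcidin pair could be compared within each library, where scaling plays no part. Hamp and Hamp2 were nearly level in replicate 1 by counts, at a ratio of 1.04 with a counting interval of 0.995 to 1.08. In replicate 2 Hamp had 2.82 times the counts of Hamp2, with an interval of 2.70 to 2.94. Hamp thus made up 51.0% of hepcidin counts in replicate 1 and 73.8% in replicate 2. Per length, the TPM of Hamp was 1.30 times that of Hamp2 in replicate 1 and 3.48 times in replicate 2. These intervals cover counting error only, and with 1 library on each side the spread between animals is not known. The windows printed above differ at the GGCGCC core and share TTCTTGGAA; whether either bears on the ratio was not tested.

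Bmp6, the main activator of hepcidin transcription, had 186 counts in replicate 1 and 212 in replicate 2 (ENSMUSG00000039004.5, chromosome 13 from 38345107 to 38500302, plus strand). At 0.271 TPM in replicate 1 and 0.472 in replicate 2 it was below the filter in both libraries. The log2 ratio was -0.23 by TMM-scaled CPM with a counting interval of -0.57 to 0.01, so on that scale a difference was not detectable at this depth. By deposited TPM the ratio was -0.80, outside that interval, so the reading depends on the scaling. Exons of Txndc5, on the opposite strand, overlap Bmp6 by 224 bases, and Txndc5 had 11346 counts in replicate 1 and 12724 in replicate 2; the strand setting of the counting is not given in the sources used here. Endothelial cells, the known source of BMP6, are a minority of liver, and in bulk tissue fewer cells of a type and less RNA per cell cannot be told apart. The 6 sinusoidal endothelial markers found summed to 31.6 TPM in replicate 1 and 42.6 in replicate 2, with a median ratio of 0.01 and 1 of the 6, Lyve1, over 2-fold higher in replicate 2. Lyve1, at 0.622 TPM in replicate 1 and 2.19 in replicate 2, passed the filter only through replicate 2.

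Among 20 listed genes of BMP and SMAD control of hepcidin, 14 passed the filter, 11 with a negative ratio and 3 with a positive one, with a median of -0.17. Over all 7702 genes tested 3430 were negative and 2.36% were over 2-fold apart. Atoh8, a transcription factor induced by BMP signalling, was the 1 gene over 2-fold apart. It had 338 counts in replicate 1 and 865 in replicate 2, or 0.502 TPM in replicate 1 and 2.00 TPM in replicate 2, a log2 ratio of -1.34. Atoh8 thus passed the filter only through its level in replicate 2. Id1, another BMP target, was not over 2-fold apart, with 415 counts in replicate 1 and 743 in replicate 2 and a ratio of -0.87; it and the following gene were named after their values were seen. Smad7, an inhibitor induced by the same pathway, was below the filter, with 457 counts in replicate 1 and 787 in replicate 2 and a ratio of -0.82.

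None of the 3 most abundant genes of that list was over 2-fold apart. Fgl1, a secreted liver protein that in mice can bind BMP6, had 83.9 TPM in replicate 1 and 71.1 in replicate 2, a ratio of 0.78. Tmprss6, the protease that lowers hepcidin, had 20.2 TPM in replicate 1 and 35.7 in replicate 2, a ratio of -0.27. Egfr, a growth factor receptor, had 21.8 TPM in replicate 1 and 29.1 in replicate 2, a ratio of 0.19. Erfe, the erythroid inhibitor of hepcidin, had 0 counts in both libraries, which allows up to 3 counts in each; it was named after its value was seen, as were Stat3 and Ireb2 below.

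Of 10 inflammatory regulators of hepcidin found, 8 passed the filter, none over 2-fold apart, with a median ratio of -0.12. The 3 highest were Creb3l3, a membrane-bound liver transcription factor, at a ratio of 0.04, Cebpa, a hepatocyte transcription factor, at -0.08, and Il6st, the signalling chain of the interleukin-6 receptor, at -0.16. Stat3, which binds the STAT site, had a ratio of -0.24. Of the genes of both lists that passed the filter, Atoh8 was the only one at least as far apart as Hamp, beside 1.97% of all genes tested. As Atoh8 passed only through the library where it is high, this carries no weight for the lists.

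Of 14 other genes of iron uptake, export and oxidation, 6 passed the filter and none was over 2-fold apart, with a median ratio of -0.07. Cp, the plasma ferroxidase ceruloplasmin, had 132 TPM in replicate 1 and 138 in replicate 2, a ratio of 0.41. Slc39a14, which takes up iron not bound to transferrin, had 10.96 TPM in replicate 1 and 17.0 in replicate 2, a ratio of -0.12, and Steap4, a metalloreductase, 9.68 TPM in replicate 1 and 11.4 in replicate 2, a ratio of 0.32. Of 12 heme and hemoglobin scavenging genes, 10 passed, with a median of 0.01. Hpx, the plasma heme carrier hemopexin, had a ratio of -0.35, Hp, which binds free hemoglobin, 0.24, and Lrp1, the hemopexin receptor, -0.53. Cd163, the macrophage receptor for hemoglobin bound to haptoglobin, was over 2-fold higher in replicate 1, with 1824 counts there and 633 in replicate 2, a ratio of 1.39. At 1.37 TPM in replicate 1 and 0.743 in replicate 2, Cd163 passed the filter only through replicate 1. Flvcr2, of the same list, was below the filter and went the other way, with 308 counts in replicate 1 and 984 in replicate 2, a ratio of -1.64. Flvcr2 was named after its value was seen. The Kupffer cell markers had a median ratio of 0.35 over the 5 of 7 that passed, and their part in the Cd163 value was not tested.

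Of 10 genes of iron regulatory proteins and ferritin handling, 8 passed the filter and none was over 2-fold apart, with a median ratio of 0.08. Aco1, the iron regulatory protein that is also the cytosolic aconitase, had 19.4 TPM in replicate 1 and 26.0 in replicate 2, a ratio of 0.15. Ncoa4, which delivers ferritin for breakdown, had a ratio of 0.19. Pcbp2, an RNA-binding protein that also carries iron to ferritin, had a ratio of -0.55. Ireb2, the other iron regulatory protein, had a ratio of 0.20. The 4 genes with the hairpins printed above had ratios of -1.39 for Tfrc, -0.58 for Ftl1, -0.29 for Slc40a1 and -0.07 for Fth1. Of 15 genes of mitochondrial iron and iron-sulfur clusters 14 passed, none over 2-fold apart, with a median of 0.16; Fdx1, Iscu and Glrx5, all with roles in iron-sulfur proteins, had ratios of 0.28, 0.20 and 0.45.

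**Figure D4:**
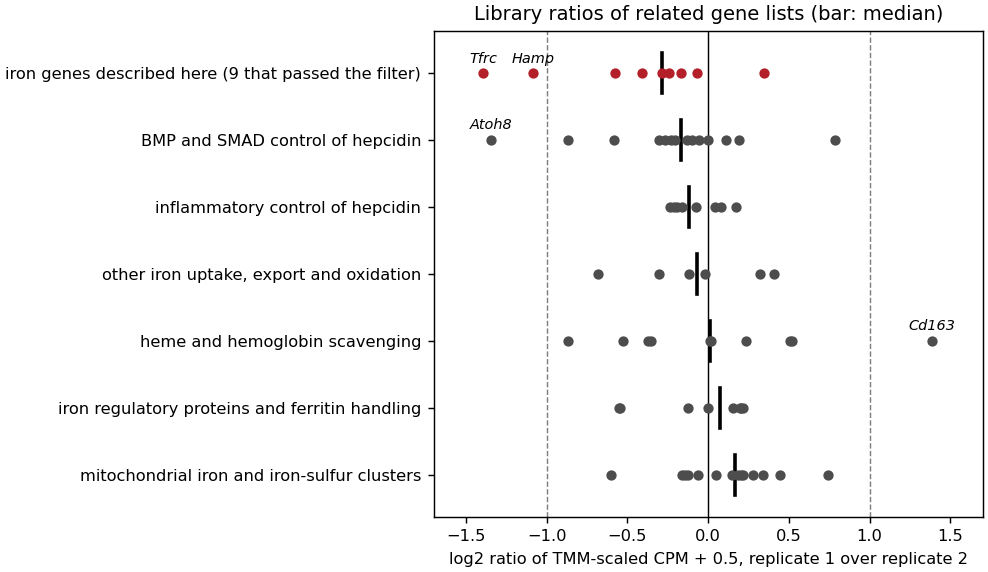
Log2 ratio of TMM-scaled CPM plus 0.5, replicate 1 over replicate 2, for the genes that passed the filter in each list, with a black bar at the median, dashed lines at 2-fold and names for genes beyond them. The iron genes have the lowest median of the 7 rows drawn, -0.29, and the others range upward to the mitochondrial iron genes at 0.16. Marker lists are not drawn, and the stellate (-0.32), erythroid (-0.49) and adrenal cortex (-4.65) lists had lower medians.

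Erythroid genes were also compared between the libraries, because Tfrc is strongly expressed in developing red cells too. The 7 erythroid genes summed to 132 TPM in replicate 1 and 262 in replicate 2, and the 5 that passed the filter had negative ratios, with a median of -0.49. Alas2, the erythroid enzyme of heme synthesis, had a ratio of -0.79. The red cell membrane gene Slc4a1 was below the filter and the higher in replicate 1, with 17 counts there and 9 in replicate 2. The part of the erythroid genes in the Tfrc value was not tested. The hepatocyte markers had a median ratio of -0.11 and the stellate markers -0.32.

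The scaling of the libraries moved all ratios together more than it moved the genes against each other. The median over all genes was 0.04 by TMM, -0.24 by the spike-in total and -0.51 by deposited TPM. The shift of -0.55 between TMM and deposited TPM turned small positive ratios of listed genes negative, such as that of Cp, at -0.06, and that of Egfr, at -0.41. Hamp and Tfrc were over 2-fold higher in replicate 2 under each of the 6 scalings plotted. Deposited TPM added Ftl1, at a ratio of -1.11, under a scale on which 9.26% of all genes were over 2-fold apart. Relative to the median, Ftl1 stood at -0.61 by TMM and -0.60 by deposited TPM, Tfrc at -1.43 and -1.20, and Trf at -0.44 and -0.29.

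**Figure D5:**
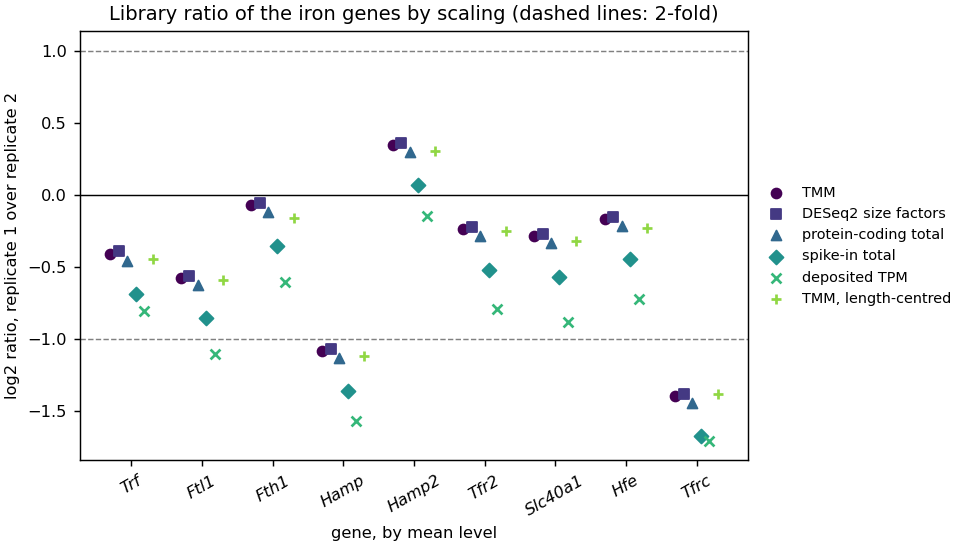
Log2 ratio, replicate 1 over replicate 2, of the 9 iron genes that passed the filter under 6 scalings, with dashed lines at 2-fold. Hamp and Tfrc lie below -1 under all 6, Ftl1 only by deposited TPM, and Hamp2 is above 0 under 5 and at -0.15 by deposited TPM.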

How the data were processed

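The authors quantified each library by itself on mm10 with GENCODE M4, per their deposited notes. Which aligner and counting program they ran is not given in the sources used here. Deposited expected counts are estimated fragments per gene, per the file headers, with shared reads divided. Deposited TPM covers all rows, spike-ins included, and was rescaled here without them; deposited FPKM was used for detection and order only. Transcript shares are the deposited percent of gene TPM. The deposited signal columns give posterior SDs of counts and bounds of TPM. Symbols and coordinates came from GENCODE M21, matching 42462 of 43346 genes.

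Counts were rounded for edgeR 4.0.16 (TMM) and DESeq2 1.42.0 (size factors), used for scaling only, in R 4.3.3. TMM factors were 0.950 in replicate 1 and 1.05 in replicate 2. The 0.5 CPM added equals 39.8 counts in replicate 1 and 37.4 in replicate 2, so ratios of low genes are understated. Ratios need a mean of 1 TPM and 10 counts. The step was checked on simulated counts that hold counting error only. That check cannot show how it does where libraries differ for other reasons. Other values came from Python 3.11.15 with pandas 2.3.3. Counting intervals are exact Poisson or binomial at 95% and cover counting error only.

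The genes, the 6 lists and the 8 marker lists were chosen with earlier results of these data known. Named genes are all 10, the 3 highest of each list by TPM, and list members over 2-fold apart that pass the filter; others are said to be named after their values were seen, or are markers. Listed genes without a match were not analysed here. The value of 1 erythroid marker is not reported here. Alternatives covered scaling, pseudocount, filter, detection threshold, unit and leaving out each library.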

Additional observations from a re-analysis of the deposited data

How the results depend on the processing

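The number of iron genes detected was 9, and it ranged from 7 at 10 TPM to 10 at 0.1 TPM, at 1 FPKM, by 10 counts and over protein-coding TPM. The number over 2-fold apart, 2, was 1 with a filter of mean 10 TPM, which removes Tfrc by construction, and 3 by deposited TPM. The mean share in endogenous TPM, 0.375%, was 2.57% of protein-coding TPM and 1.48% of expected counts, whose denominators differ by construction; without replicate 1 or 2 it ranged from 0.267% to 0.483%. The ratio of Hamp2 was 0.34 by TMM and -0.15 by deposited TPM. Of all the ratios of single genes under another scaling or pseudocount, 30 lay within the counting interval and 29 outside it, of which deposited TPM and the spike-in total gave 19. By the posterior mean the main transcript held 32.98% of Tfrc. No paired analysis was possible because the libraries form 1 group. Depth limits Bmp6 most, at 186 counts in replicate 1 and 212 in replicate 2.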
